A study of Mus musculus with 6 samples.

Results

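The type I interferon stimulated genes were read as a set of 39 named genes, chosen by symbol through the accession of each array probe. Of these, 36 genes had a probe matched to their symbol, out of 18342 genes with a named probe in the whole series, and all 36 were among the 15382 genes tested. The dynamin-like GTPases Mx1 and Mx2 and the ubiquitin ligase Dtx3l were not analysed here. A total of 34 of the 36 genes were well above background on all 6 arrays, the exceptions being Ifi44l and Oas1g.

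RNA from 6 mouse liver samples was measured, each on 1 single-colour array. All mice were on a BL6 background and carried the Fah deletion Fah_del_tm1Mgo. Without this hydrolase, tyrosine cannot be fully degraded and toxic intermediates build up in hepatocytes. NTBC inhibits the pathway upstream of that point and so protects the liver; it was supplied in drinking water, at 7.5 µg/ml for the full dose. FCR mice carried in addition the deletions Rag2_del_tm1Fwa and common gamma chain del tm1Wjl, and such mice lack mature T cells, B cells and NK cells. Each genotype gave 1 sample on continuous NTBC (100%), 1 labelled off and 1 labelled 2xoff/on. The labels call the Fah samples healthy liver, tumor and tumor, and the FCR samples normal liver, inflamed liver and inflamed liver. Ages are not given in the sources used here, nor is it clear in which phase of the NTBC cycle the livers labelled off and 2xoff/on were taken. Nothing in the labels says whether the samples came from separate animals, so the p-values measure only the spread between these samples. Genotype and tumour tissue cannot be told apart on the withdrawal arrays.

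Type I interferons are secreted when cells sense foreign or misplaced nucleic acid. They act through the receptor chains Ifnar1 and Ifnar2 and the kinases Jak1 and Tyk2, which activate transcription factors, Stat2 and Irf9 among them. These bind the interferon-stimulated response element in promoters and switch on antiviral genes. Many of these genes are also raised by interferon gamma and interferon lambda, and hepatocytes as well as immune cells express them.

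Promoter sequence is shown for the genes whose genotype difference was largest, 3 that hold the core of the response element and 2 that do not. The core was searched as GAAANNGAAA on both strands, so also as TTTCNNTTTC, in windows from 250 bases before to 50 bases after the annotated start (RefSeq, GRCm38.p6). Each sequence below is the 150 bases before the start, read 5′ to 3′ on the gene's strand, with the core in capitals where it was found. Isg15 lies at chr4:156200819-156200968 (minus strand), Rsad2 at chr12:26456453-26456602 (minus strand) and Ifit1 at chr19:34640739-34640888 (plus strand). Ifi44 lies at chr3:151749911-151750060 and Ifi44l at chr3:151762892-151763041, both on the minus strand.
Isg15: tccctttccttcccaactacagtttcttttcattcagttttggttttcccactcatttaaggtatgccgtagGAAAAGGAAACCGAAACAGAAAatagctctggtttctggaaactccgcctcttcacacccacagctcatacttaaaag
Rsad2: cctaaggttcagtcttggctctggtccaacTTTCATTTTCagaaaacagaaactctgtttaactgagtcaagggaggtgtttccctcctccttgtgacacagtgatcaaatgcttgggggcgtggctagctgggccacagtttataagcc
Ifit1: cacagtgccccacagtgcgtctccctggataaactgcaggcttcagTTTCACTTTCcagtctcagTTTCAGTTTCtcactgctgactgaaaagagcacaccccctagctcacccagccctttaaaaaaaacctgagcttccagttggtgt
Ifi44: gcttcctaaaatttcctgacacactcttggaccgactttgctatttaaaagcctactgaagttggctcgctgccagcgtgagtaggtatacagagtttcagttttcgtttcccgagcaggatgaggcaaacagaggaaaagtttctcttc
Ifi44l: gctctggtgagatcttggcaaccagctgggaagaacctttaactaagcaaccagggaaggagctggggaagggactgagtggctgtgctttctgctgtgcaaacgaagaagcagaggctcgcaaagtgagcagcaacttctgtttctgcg

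The Isg15 promoter held the core at 3 overlapping positions, whose first bases lay 78, 72 and 66 bases before the start. Ifit1 held it at 104 and 85 bases before the start, and Rsad2 at 120. Of the 29 members with a promoter window, 15 (51.7%) held the core, against 1079 of 27025 genes (3.99%). The palindrome TTCNNNGAA, the core of the gamma-activated site, was in 6 of the 29 (20.7%) and in 9.55% of all genes. A match is a description of letters and not a measured binding site.

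Each array held 43379 spots, and the share well above background ran from 60.5% to 74.5%. Levels are given as the log2 processed signal minus the 75th percentile of the array, so that 0 is that percentile. Both 2xoff/on arrays lay on slide 2 and the other 4 arrays on slide 1. The FCR off array stood apart: on the second principal component of the tested genes it lay at 104, and the other arrays between -53.0 and 7.96. It also carried the highest summed level of monocyte markers, 180 against 3.55 to 29.1 on the other 5 arrays, in units of the array's 75th percentile. Results are therefore also given without the off pair.

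The genotypes were compared at matched regimens, with the regimen as a block. Interferon stimulated genes lay lower in Fah than in FCR liver at each regimen, on continuous NTBC as well as after withdrawal. Isg15, Ifi44 and Ifi44l were lower past the threshold (limma, Benjamini-Hochberg adjusted p under 0.05 over all 15382 genes), 3 of 36 members or 8.33%, where 0.163% of all genes were called lower. No member was called higher, against 0.13% of all genes. Over the 36 members the median difference, Fah minus FCR, was -1.15 on the log2 scale, and 34 lay below 0; the median of all genes tested was -0.11. At an unadjusted p under 0.05, 26 members (72.2%) were lower, against 6.87% of all genes. The members were chosen with earlier results of these data known, so shares set against all genes, here and below, are descriptions.

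The pairs of arrays were also read singly. The median difference of the members was -1.02 on continuous NTBC, -1.13 in the off pair and -1.21 in the 2xoff/on pair, and the medians of all genes were -0.07, -0.29 and -0.03. Below 0 lay 34, 30 and 35 of the 36 members. A total of 28 members (77.8%) were lower in Fah at each of the 3 regimens, against 24.6% of all genes. By more than 1 at each regimen, 11 members (30.6%) were lower, against 0.722% of all genes. In 15 members (41.7%) every Fah array lay below every FCR array, against 5.82% of all genes. In such bulk samples, fewer cells of a type and less RNA per cell cannot be told apart.

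**Figure D1:**
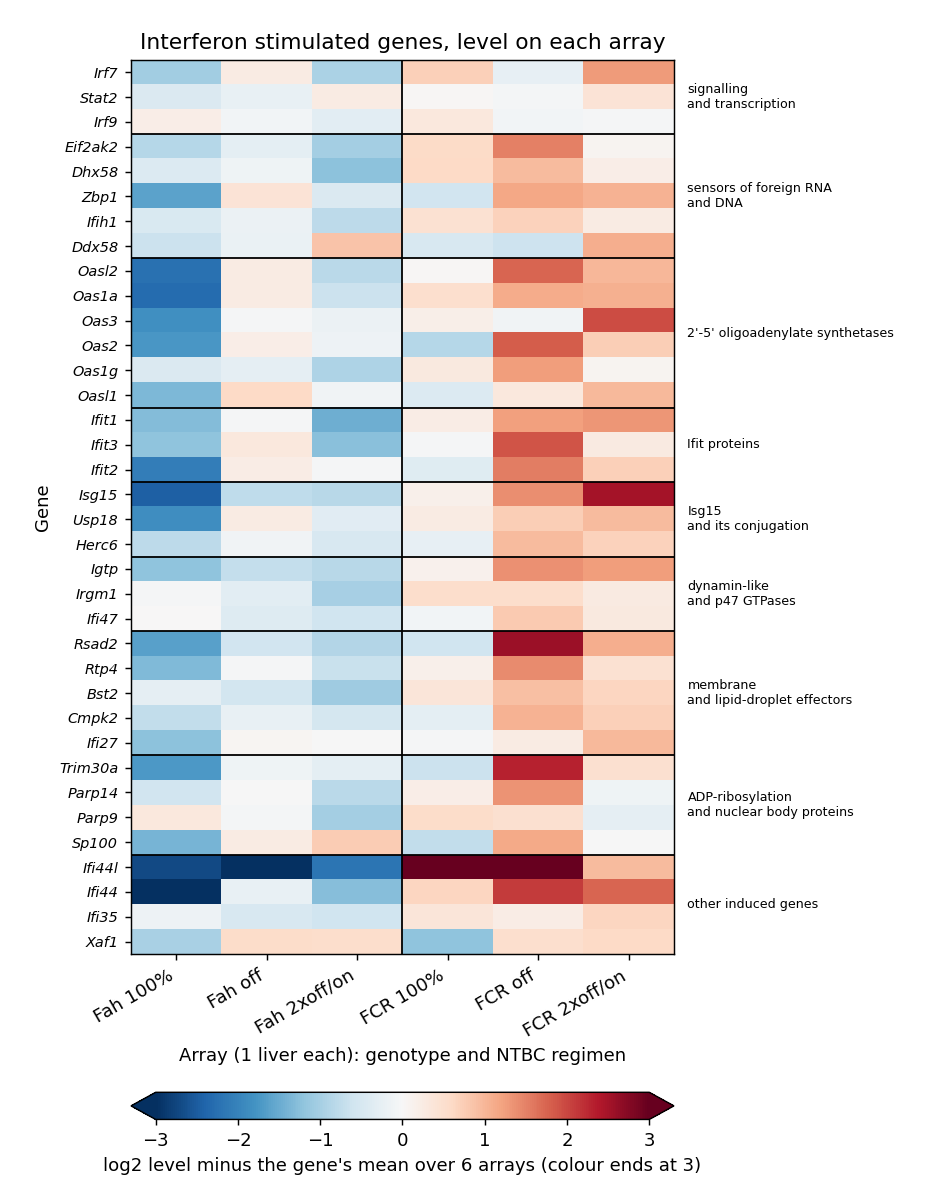
Level of each of the 36 measured genes on the 6 arrays, as log2 level minus the gene's mean over the arrays, with genes grouped by role (rows) and arrays by genotype and NTBC regimen (columns, 1 liver sample each). The FCR columns on the right are mostly red and the Fah columns mostly blue, with the lowest Fah levels for many genes on continuous NTBC; 34 of the 36 genes have a negative Fah minus FCR difference in the fit.

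Isg15, a ubiquitin-like protein that is coupled to other proteins and also secreted, had log2 levels of 0.20 on continuous NTBC, 1.88 off and 1.80 on 2xoff/on in Fah liver. In FCR liver the same regimens gave 2.78, 4.03 and 5.15. The lowest FCR level was thus above the highest Fah level. The fitted difference was -2.69 ± 0.32 (log2, SE, n = 3 pairs), or 6.46-fold (limma, adjusted p = 0.0194).

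Ifi44, an interferon-induced protein of little known function, was at -2.46, 0.31 and -0.74 in Fah liver and at 1.18, 2.62 and 2.27 in FCR liver, in the same order of regimens. Again the genotypes did not overlap. Its difference was -2.99 ± 0.33 (7.93-fold; limma, adjusted p = 0.0193).

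Ifi44l, its neighbour on chromosome 3, was well above background on no Fah array, with readings of -7.19, -7.48 and -6.69, and on all 3 FCR arrays, at -1.27, -0.76 and -3.55. The size of its difference depends on where the limit of the Fah arrays is set. The FCR mean was at least 17.1-fold above the log2 mean of the Fah arrays' own lowest readings well above background. It was at least 9.57-fold above 1 common limit. In the authors' deposited log2 values the fitted difference was 5.80-fold, and with normexp background correction 3.40-fold. The fit's adjusted p was 0.0254 (limma), with the Fah readings at background. The second Ifi44l probe was likewise well above background on all FCR arrays and on no Fah array, at least 25.4-fold apart by the arrays' own limits and 14.2-fold by the common one.

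These 3 calls changed with the arrays used and with the processing. With all 6 arrays kept, no member passed in the authors' deposited log2 values, with quantile normalization, with normexp or without the regimen block. Without the off pair, which holds the FCR off array, the differences were -2.97 for Isg15 and -3.32 for Ifi44 (limma, adjusted p = 0.228 for both) and -4.53 for Ifi44l (0.529), and no member or other gene passed. Without the 2xoff/on pair 9 members were lower, 25% against 1.27% of all genes, and without the continuous pair 8, 22.2% against 3.07%.

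**Figure D2:**
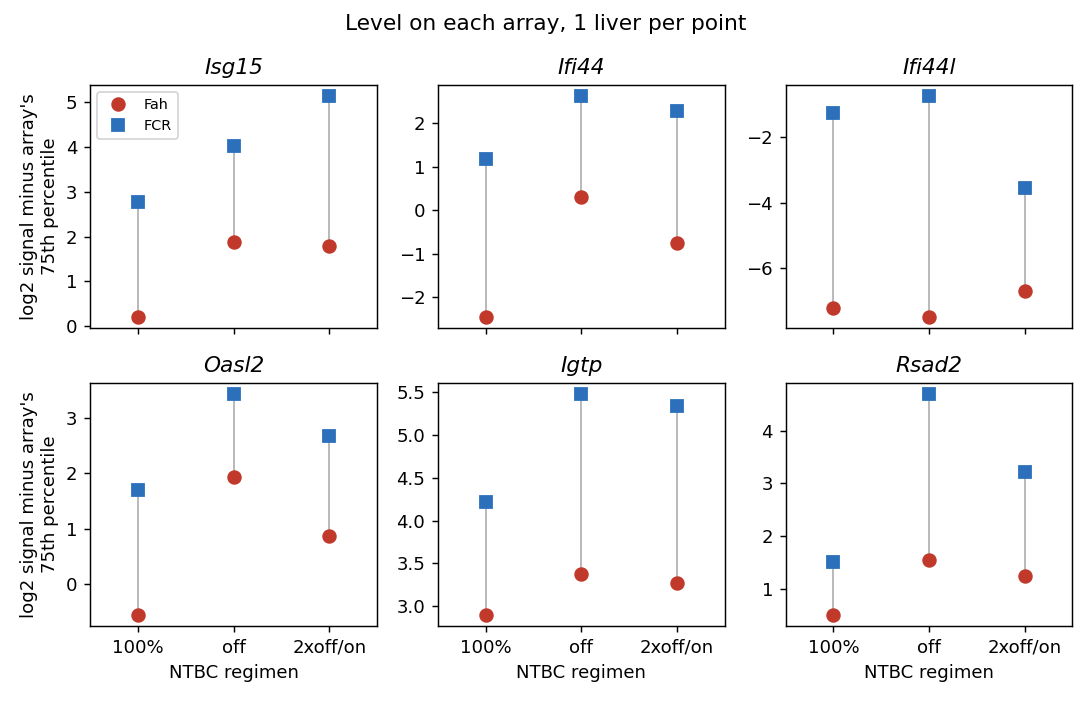
Log2 level on each array (vertical axes, log2 signal minus the array's 75th percentile; each panel has its own scale) against NTBC regimen for 6 genes with large genotype differences, Fah as circles and FCR as squares, 1 liver sample per point. In each panel and at each regimen the FCR point lies above the Fah point; Ifi44l readings in Fah are below what the arrays resolve.

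Among the oligoadenylate synthetases, enzymes that sense double-stranded RNA and activate RNase L, and the related Oasl proteins, 4 of 6 lay lower in Fah at each regimen and none passed. Oasl2 had the largest difference of the group. It was at -0.56, 1.93 and 0.87 in Fah liver and at 1.71, 3.43 and 2.68 in FCR liver. The FCR level on continuous NTBC thus fell inside the Fah range, and the fitted difference was -1.86 ± 0.29 (limma, adjusted p = 0.0579). Oas1a was at -1.03, 1.52 and 0.62 in Fah liver and at 1.78, 2.40 and 2.34 in FCR liver, without overlap (difference -1.80 ± 0.39; limma, adjusted p = 0.161).

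Oas3 was at -4.45, -2.64 and -2.80 in Fah liver and at -2.44, -2.71 and -0.65 in FCR liver. The off pair differed by 0.07, and the other pairs by -2.00 and -2.15. Oas2 was at -1.80, 0.13 and -0.22 in Fah and at -0.93, 1.75 and 0.68 in FCR liver, a difference of -1.13 ± 0.31 for the brighter probe. The dimmer Oas2 probe differed by 0.54, in the opposite direction. Oas1a and Oas1g are close copies, so their probes may share signal.

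The Ifit proteins, which bind foreign RNA ends and block translation, lay lower in Fah at each regimen in all 3 members. Ifit1 was at -0.71, 0.55 and -0.87 in Fah liver and at 0.80, 1.82 and 1.91 in FCR liver. The groups did not overlap, and the difference was -1.85 ± 0.36 (limma, adjusted p = 0.135). Ifit3 was at 2.09, 3.61 and 2.05 in Fah liver and at 3.26, 5.19 and 3.57 in FCR liver, a difference of -1.42 ± 0.28. The off array was the highest of its genotype. Ifit2 was at -3.17, -0.88 and -1.12 in Fah liver and at -1.45, 0.45 and -0.39 in FCR liver, with a difference of -1.26 ± 0.34.

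The sensors of foreign nucleic acid were lower in Fah at each regimen in 4 of 5 cases. Eif2ak2, the kinase PKR that halts translation on double-stranded RNA, was at 0.15, 0.73 and 0.00 in Fah liver and at 1.60, 2.52 and 1.10 in FCR liver. No Fah level reached the lowest FCR level, and the difference was -1.45 ± 0.29 (limma, adjusted p = 0.137). Zbp1, a sensor of left-handed nucleic acid that can trigger cell death, was at -0.26, 1.75 and 0.90 in Fah liver and at 0.78, 2.51 and 2.40 in FCR liver. The RNA helicases Ifih1 (MDA5) and Dhx58 (LGP2) differed by -0.94 and -1.18 without overlap of the genotypes. Ddx58 (RIG-I), the fifth of these sensors, differed by 0.00 ± 0.30, and its single pairs by -0.17, 0.42 and -0.25.

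Among the membrane and lipid-droplet effectors, all 5 lay lower in Fah at each regimen. Rsad2 (viperin), which makes an antiviral nucleotide, was at 0.50, 1.55 and 1.25 in Fah liver and at 1.52, 4.69 and 3.22 in FCR liver. The continuous FCR level lay just under the Fah off level, and the difference was -2.04 ± 0.41 (limma, adjusted p = 0.137). The 2 other Rsad2 probes differed by -0.44 and -0.43, so its size depends on the probe. Rtp4 and Bst2, the latter a tether of budding virus, differed by -1.36 and -1.27 without overlap.

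The p47 GTPases act on vacuoles of intracellular pathogens and are also known as interferon gamma targets. Igtp was at 2.90, 3.37 and 3.27 in Fah liver and at 4.22, 5.48 and 5.34 in FCR liver. The genotypes stood clear of each other, with a difference of -1.83 ± 0.31 (limma, adjusted p = 0.0812). Irgm1 differed by -0.89, also without overlap, while Ifi47 differed by 0.10 on continuous NTBC and by -1.17 and -0.90 in the other pairs.

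Among ADP-ribosylation and nuclear body genes, Trim30a, which restrains inflammatory signalling, was at -2.15, -0.56 and -0.73 in Fah liver and at -1.07, 1.89 and 0.05 in FCR liver. Its FCR off level was the highest of the 6 and the difference was -1.44 ± 0.39 (limma, adjusted p = 0.268). The dimmer Trim30a probe differed by -0.54, so the size depends on the probe. Sp100, a nuclear body protein, reached 0.77 above FCR in the 2xoff/on pair and differed by -0.65 and -0.89 in the others.

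The 3 transcription factors that carry the interferon signal had a median difference of -0.28, the nearest to 0 of the 9 role groups. Irf7, the factor that amplifies interferon production, was at 0.39, 1.69 and 0.48 in Fah liver and at 2.16, 1.20 and 2.71 in FCR liver. Fah was the lower genotype on continuous NTBC and 2xoff/on, and the higher one, by 0.49, in the off pair (fitted difference -1.17 ± 0.50; limma, adjusted p = 0.421). Stat2 and Irf9, partners in the factor that binds the response element, differed by -0.28 ± 0.27 and -0.13 ± 0.27. Xaf1, a proapoptotic gene, differed by 0.07 ± 0.29.

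The 19 members not given with each array's value had differences from -1.36 to 0.00, with a median of -0.89, and 18 lay below 0. For 14 members more than 1 probe was measured. The probes differed in sign for Cmpk2 (-0.99 and 0.52), Ifih1 (-0.94 and 0.35), Irf9 (-0.13 and 0.33), Oas2 and Ddx58.

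**Figure D3:**
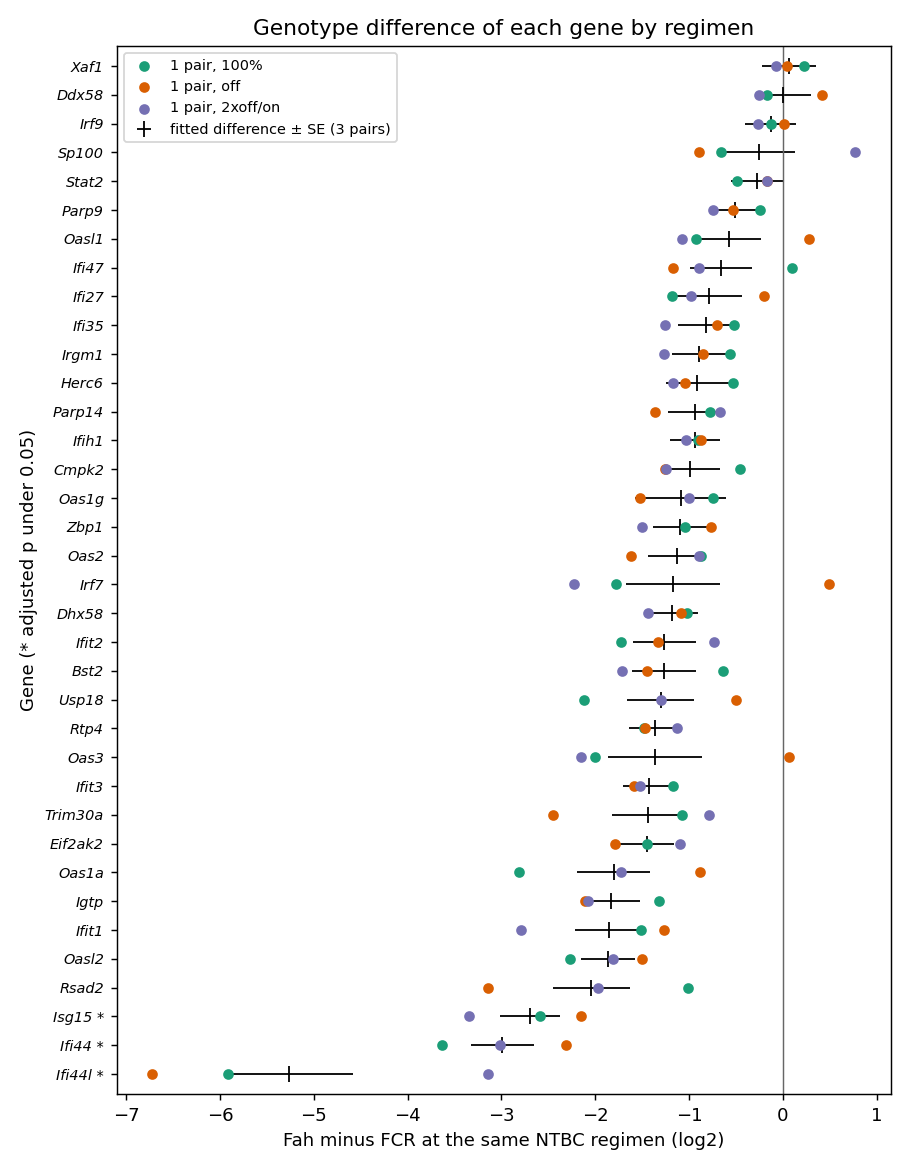
Fah minus FCR difference of each gene (horizontal axis, log2) in the 3 single pairs of arrays (coloured points) and in the fit over the pairs (black tick ± SE), with genes in order of the fitted difference. All points of 28 genes lie left of 0; the starred genes Isg15, Ifi44 and Ifi44l have an adjusted p under 0.05.

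Members with and without the core of the response element both lay lower in Fah. The 15 members with it had a median difference of -1.42, from -2.69 (Isg15) to 0.00 (Ddx58), and the 13 without it a median of -0.91, from -5.26 (Ifi44l) to 0.07 (Xaf1). Ifi44 and Ifi44l, which had 2 of the 3 called differences, thus had no match in the window shown above. Members that neighbour each other in the GRCm38.p6 gene order formed 7 groups of 15 genes. Ifi44 and Ifi44l, and Ifit2 and Ifit3, were such neighbours, as were Rsad2 and Cmpk2, with differences of -2.04 and -0.99.

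Withdrawal of NTBC was compared with continuous NTBC within each genotype and over both. Over both genotypes, 6 members rose: Oas2, Ifit2, Ifi44, Isg15, Xaf1 and Zbp1, 16.7% of 36, against 8.66% of all genes. Oas2 rose by 1.95 ± 0.49 (log2, SE, 4 against 2 arrays; limma, adjusted p = 0.0339), though its dimmer probe differed by 0.60 ± 0.84 only. Ifit2 rose by 1.82 ± 0.48 (0.0420), Ifi44 by 1.75 ± 0.48 (0.0460), Isg15 by 1.72 ± 0.46 (0.0421), Xaf1 by 1.64 ± 0.43 (0.0402) and Zbp1 by 1.63 ± 0.44 (0.0462). The median change of the members was 0.83, with 28 of 36 above 0, and that of all genes was -0.02. At an unadjusted p under 0.05, 14 members (38.9%) were higher, against 16% of all genes. On all 4 withdrawal arrays 18 members (50%) lay above the continuous array of their genotype, against 24.1% of all genes.

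The calls of this comparison depend on the settings. None of the members passed with values set relative to the array median, quantile normalized or in the authors' deposited log2 values, nor without the tumour off or the tumour 2xoff/on array, while 13 rose with slide as a block (36.1% against 15.2% of all genes), 14 without the FCR off array (40% against 11.6%) and 15 without the FCR 2xoff/on array (41.7% against 15.0%). The 2 continuous arrays are 1 per genotype, so that their spread is taken from the other groups. Slide 2 held the 2xoff/on arrays alone, so slide and that regimen cannot be told apart, here and within each genotype below. With slide as a block, the change over both genotypes is that of off against continuous NTBC only.

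Within Fah, tumour against healthy liver, the members' median change was 0.72, from -0.86 (Parp9) to 2.24 (Ifi44), and 27 of 36 lay above 0. No member passed (limma), against 3.93% of all genes called higher, and 11 were higher at an unadjusted p under 0.05, against 12.5% of all genes. With slide as a block 9 passed, 25% against 12.3% of all genes. Within FCR, inflamed against normal liver, the median was 0.74, from -0.88 (Ifi44l) to 2.44 (Rsad2), with 30 above 0. Again no member passed, against 1.55% of all genes, with 6 at an unadjusted p under 0.05, against 9.41% of all genes. With slide as a block 4 passed, 11.1% against 8.80% of all genes, a share near the background.

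The withdrawal arrays were also read singly. In Fah liver the members' median change was 1.16 on the off array and 0.59 on the 2xoff/on array; in FCR liver it was 0.94 and 0.71. Rsad2 changed by 3.18 on the FCR off array and by 1.05 on the Fah off array. Isg15 changed by 1.68 and 1.60 in Fah and by 1.24 and 2.36 in FCR liver (off and 2xoff/on). Xaf1, which did not differ by genotype past the threshold, had like values on all withdrawal arrays, with log2 levels of -1.03, 0.50 and 0.49 in Fah and of -1.25, 0.45 and 0.56 in FCR liver.

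The change with withdrawal was not called different between genotypes for any member, nor for any gene (0% of 15382; limma). At an unadjusted p under 0.05, no member and 2.16% of all genes differed. The members' median of the Fah change minus the FCR change was -0.13, from -1.54 (Rsad2) to 1.51 (Oas1a). Quantile normalization turned that median to 0.05. With 1 continuous array a genotype, the standard errors of these differences ran from 0.76 to 1.65.

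**Figure D4:**
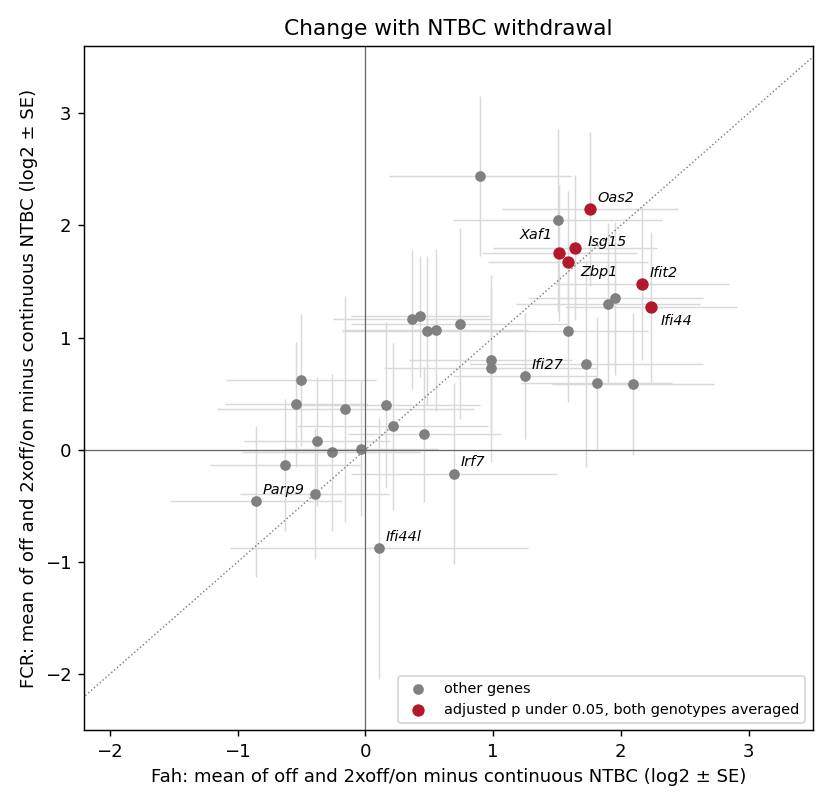
Change of each of the 36 genes with NTBC withdrawal, as the mean of the off and 2xoff/on arrays minus the continuous array (log2 ± SE), in Fah liver (horizontal) and FCR liver (vertical), with the dotted line marking equal change. Most points lie above 0 on both axes; the red points are Oas2, Ifit2, Ifi44, Isg15, Xaf1 and Zbp1, which passed over both genotypes.

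The comparison named by the submitters sets both Fah tumour arrays against the FCR continuous and FCR 2xoff/on arrays, so that its FCR side joins normal and inflamed liver. Of 35 members tested, 31 lay below 0, with a median of -0.66, against -0.15 for all genes. None passed (limma; 0% of 15175 genes), and 8 were lower at an unadjusted p under 0.05, 22.9% against 3.82% of all genes: Isg15, Ifi44, Ifi44l, Irf7, Bst2, Ifi35, Igtp and Irgm1. Isg15 differed by -2.12 and Ifi44 by -1.94. Leaving out an FCR array leaves 1 on that side, whose spread is then taken from the Fah tumour arrays. Without the FCR continuous array Isg15 was at -3.31 ± 0.42 (limma, adjusted p = 0.0166), where 0.239% of all genes were called lower. Without the FCR 2xoff/on array Xaf1 was at 1.74 ± 0.51 (limma, adjusted p = 0.0430), where 9.95% of all genes were called higher, so that this is no result about the members.

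Other genes of the pathway were followed from lists. Of 10 interferon ligands tested none passed and 9 lay below 0, with a median of -0.45, against -0.11 for all genes. The 12 ligands with a probe summed to only 0.624 to 1.59 per array, in units of its 75th percentile. The lowest reading well above background was -5.12, -6.55 and -6.20 on the Fah arrays (continuous, off, 2xoff/on). On the FCR arrays it was -5.51, -5.87 and -5.65. What part these unequal limits had in the count of 9 was not tested. Ifnb1, interferon beta, was well above background only on 2 FCR arrays. It was at -5.34, -0.68 and -5.10 in FCR liver (continuous, off, 2xoff/on), and on the Fah arrays its readings were -6.84, -7.88 and -8.08, below what could be resolved. The FCR off array thus stood far above the other 5 for Ifnb1. The FCR mean was 4.75-fold above the Fah limit with that pair and 1.35-fold without it (limma with all pairs, adjusted p = 0.241). With 1 common limit these were 2.80-fold and 1.005-fold. Each FCR mean took in a reading not well above background, so these are no lower bounds. Ifng, made by T and NK cells, was well above background on 2 Fah arrays and on no FCR array. Its Fah mean was 1.16-fold above the FCR limit, or 1.10-fold with the common limit. Ifnk was well above background on 2 FCR arrays and on no Fah array. Its FCR mean was 1.27-fold above the Fah limit, or 1.26-fold with the common limit. The Ifng and Ifnk means also took in a reading not well above background. Ifna12 differed by -0.78.

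Of 10 receptor chains and kinases none passed by genotype, and the median was -0.17. Tyk2 differed by 0.69, Ifnar2 by -0.62 and Ifnlr1 by -0.51. Ifnlr1, the interferon lambda receptor, rose with withdrawal at least 28.2-fold over both genotypes, or 26.4-fold with 1 common limit (limma, adjusted p = 4.37e-04). It was well above background on the 4 withdrawal arrays only, at -0.39 and -0.24 in Fah and at -0.48 and -0.48 in FCR liver, with readings of -7.18 and -5.31 on the continuous arrays. Of the 10 inhibitors none passed either, and their median was -0.05, with Axl at 0.90, Tyro3 at 0.83, Pias4 at 0.72 and Socs3 at -0.70. Among 19 genes of nucleic acid sensing, 10 lay below 0 and 9 above, with a median of -0.09. Irf5 differed by 1.06, Trex1 by -0.66, Sting1 by 0.65 and Ikbke by 0.54.

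Of 33 further interferon stimulated genes that are no members, 22 lay below 0 and none passed by genotype. At an unadjusted p under 0.05, 7 of the 33 were lower, where 6.87% of all genes were. The 33 genes had a median of -0.32, where that of all genes tested was itself below 0, at -0.11. Ifi205 was at -0.98, Tor3a at -0.96, Tdrd7 at -0.94 and Slfn8 at 0.93. Among 22 genes known for induction by interferon gamma, 17 lay below 0 with a median of -0.60. Of these genes 1 passed as lower, where 0.163% of all genes did. Gbp3, a guanylate-binding protein, was at -0.41, 1.53 and 1.11 in Fah liver and at 1.89, 3.41 and 2.93 in FCR liver. The genotypes did not overlap, and the difference was -2.00 ± 0.28 (limma, adjusted p = 0.0364). The chemokines Cxcl9 and Cxcl10 differed by -1.84 and -1.58, and Ciita, the regulator of MHC class II genes, by 1.72 in the other direction. Cxcl10 rose with withdrawal by 2.57 ± 0.45 (limma, adjusted p = 0.00838). Over both genotypes, 4 of these 22 genes and 5 of the 33 were called higher with withdrawal and none lower, where 8.66% of all genes were called higher.

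Marker lists of cell types moved with the groups too, and their part in the results above was not tested. The summed level of 4 B cell markers was 0.603 to 0.912 in Fah and 0.167 to 0.256 in FCR liver, and that of 4 NK cell markers 0.0691 to 0.290 and 0.0282 to 0.0377. For 5 T cell markers it was 0.844 to 0.899 in Fah and 0.494 to 0.738 in FCR liver, with 3 of the 5 higher and 2, Cd3e and Cd4, lower in Fah (differences of -0.17 and -0.28). Ms4a1 and Cd8a were called higher in Fah (limma, adjusted p = 0.0194 and adjusted p = 0.0476) and, like Cd3g, Gzma, Ncr1 and Prf1, were well above background on no FCR array. The summed B, T and NK cell markers were thus lower on every FCR than on every Fah array. All 5 neutrophil markers and all 4 monocyte markers rose with withdrawal over both genotypes (limma, adjusted p under 0.05). In that comparison 8.66% of all genes were called higher and 3.29% lower. The summed levels of these markers on the withdrawal arrays were 11.2 to 37.7 and 10.5 to 180. On the continuous arrays these sums were 0.764 and 1.02 for neutrophils and 3.55 and 6.28 for monocytes. The summed level of 7 macrophage markers was 394 on the FCR off array and 31.6 to 152 on the others. A sum is led by its brightest markers. In the genotype fit 4 of the 7 lay higher and 3 lower in Fah, with a median difference of 0.85. Of 6 plasmacytoid dendritic cell markers none passed by genotype, and 2 of the 6 rose with withdrawal. Their summed level was 0.274, 0.475 and 0.777 in Fah and 0.259, 0.731 and 0.954 in FCR liver (continuous, off, 2xoff/on). In the genotype fit 5 of the 6 lay higher and 1 lower in Fah, with a median difference of 0.29. Siglech, the most specific of the 6, was well above background on the Fah tumour arrays only. The 4 measured hepatocyte markers summed to 1827 and 1593 on the continuous arrays and to 592 to 1113 on the withdrawal arrays, with a median change of -1.11 and 1 of 4 called lower. Of 4 cholangiocyte markers 3 rose with withdrawal, with a median change of 2.89, and all 4 lay higher in Fah without passing.

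Genes outside the set whose pattern over the 6 arrays was most like that of Isg15 were ranked by Pearson's r, as a description. The first were Ren2 (r = 0.983), Dusp4 (0.975), Cplx1 (0.973), Sel1l3 (0.971) and Zfp53 (0.968), followed by Ren1, Smco2, Tnnt1, Utp14b and Lrmda, at 0.960 to 0.958. Among the other 35 members r had a median of 0.75, from -0.18 (Irf9) to 0.95 (Igtp), and 34 were above 0; the median of all tested genes was 0.08. These values share 6 arrays, the genotype split and the withdrawal split.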

How the data were processed

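The authors deposited 1 scanner file per array; per the file headers Feature Extraction 10.7.3.1 read the scan, while the submitters' processing notes name Agilent Feature Extraction 10.5. The processed intensity of each spot in the deposited files has its background subtracted and no scaling between arrays. The authors' deposited log2 values, with medians of 6.46 to 6.48 per array, followed the log2 median signal (r = 0.996 to 0.999), and served as an alternative; by which method the arrays were brought to one median is unknown here.

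Control and outlier spots were left out, no spot was saturated, and spots of a probe were averaged. The array design is on mm9. Accessions were matched without versions to RefSeq symbols, naming 26912 of 41145 probes (18342 genes); the brightest probe of a gene over the 6 arrays was used. A gene had to be well above background on 2 or more arrays and was tested with limma 3.58.1 (R 4.3.3; intensity trend, two-sided, Benjamini-Hochberg at 0.05). The genotype fit had regimen as a block, the withdrawal fits used 4 group means, both over 6 arrays with 2 residual degrees of freedom, and the submitters' comparison used its 4 arrays. Summed marker levels add linear levels. A bound sets the mean of the brighter arrays against a mean over the dim arrays. Each dim array enters with the higher of its reading and its lowest reading well above background.

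Members named with each array's value are those that passed, the 12 largest genotype differences and the largest of each role group; of other lists, genes that passed and the 4 largest, of which 1 is not reported here. Members and lists were chosen with earlier results of these data known. The number of arrays limits the precision. Alternatives were other background correction and normalization, filters, probe averaging, no trend, the authors' values, blocks and leaving out arrays; a common floor of -5.12 was chosen after seeing the data.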

Additional observations from a re-analysis of the deposited data

How the results depend on the processing

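The members' median genotype difference was below 0 in every setting run, from -0.89 to -1.22, and at least 32 members lay below 0 in each. It was -0.96 with the authors' values, -1.004 with quantile normalization, -0.89 with normexp and -1.04 with the mean of a gene's probes. The calls moved more. Against 3 members lower in the fit reported, 0 passed with normexp, quantile normalization, the authors' values, a common floor, no regimen block, or tumour against inflamed liver on the 4 withdrawal arrays in the fit of group means, which has no regimen block. In the other settings 1 passed without the intensity trend and 5 with no filter; leaving out arrays or pairs, with the block kept, gave 0 to 9, with medians of -1.18 to -1.05. Fits on fewer arrays rest mostly on the spread shared by all genes. For withdrawal over both genotypes, 6 members passed as reported; 0 did with the array median, normexp, quantile normalization, the authors' values or the floor, 1 with no filter or no intensity trend, 13 with slide as a block, and 0 to 15 with an array left out. The median change was 0.52 with the array median, which set the median of all genes at -0.33. Within Fah 9 and within FCR 4 members passed with slide as a block, and 0 to 9 and 0 to 3 with an array left out, where up to 10.3% and 7.51% of all genes were called higher. In the submitters' comparison 0 to 1 passed with an array left out. No setting called a member different between the withdrawal changes. Over all genes the genotype fit called 45, and from 0 (common floor) to 1013 (without the continuous pair) elsewhere. Readings near background limit Ifi44l, Oas1g, Ifnb1, Ifng, Ifnk and Ifnlr1. The labels give no replicate numbers, so arrays were paired by regimen alone. In the withdrawal fits, slide as a block also took up the 2xoff/on regimen, which alone lay on slide 2.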
